A study of Mus musculus with 41 samples.

Results

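Matrix metalloproteinases (MMPs) and their tissue inhibitors (TIMPs) were followed in the tibiae of young and old mice as 10 genes named by symbol: 7 proteinases, Mmp2, Mmp3, Mmp8, Mmp9, Mmp13, Mmp14 and Mmp16, and the inhibitors Timp1, Timp2 and Timp3. All 10 were present among the 43346 genes of the count table, and all 10 were among the 19292 genes that were read often enough to be tested. They were picked by name, with earlier results of these data known.

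MMPs are zinc endopeptidases that are made as inactive proenzymes and, once activated, cut collagens, gelatin and other proteins of the extracellular matrix. TIMPs bind to active MMPs and block them, and Timp2 also forms a complex with Mmp14 at the cell surface in which proMmp2 is activated. In bone, Mmp9 is a product of osteoclasts, Mmp13 is a collagenase of osteoblasts and hypertrophic chondrocytes, Mmp8 is stored in neutrophil granules, and MMPs are secreted by senescent cells as part of the senescence-associated secretory phenotype.

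RNA was sequenced from tibiae of 41 female mice carrying the INK-ATTAC transgene, in which the p16Ink4a promoter drives a caspase that the dimerizer AP20187 (AP) activates, so that cells expressing p16Ink4a are removed. The groups were young (12 mice), old with vehicle (13 mice) and old with AP (16 mice), injected for 4 months from the age of 20 months, with AP at 10 mg per kg. The labels place the young mice at 6 to 12 months and the old mice at 20 months, and list the young mice as vehicle mice too. The study's methods give 6 months for the young mice and place the death of the old mice after the 4 months of injection. By these methods 20 months is the age at the first injection, not the age of the old bones. The bones had been centrifuged to remove marrow, each library came from 1 mouse, and neither young mice given AP nor mice without the transgene form a group. The labels name no batch, and the young mice carry a mouse number range of their own, so that a batch following age cannot be told apart from age.

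The libraries held 37028959 to 75942717 counts (median 47774880), and no 2 mice of 1 group were as alike as counting error alone would make them. Cdkn2a, which encodes p16Ink4a, had a median level of 0.587 CPM (counts scaled to a library of 1e6) in young mice, 2.2 CPM in old vehicle mice and 1.1 CPM in old AP mice. The bone matrix genes Bglap and Col1a1 were read in every mouse, at a lowest level of 16.5 and 2460 CPM. The bones also held marrow and muscle RNA, with summed levels of 11 neutrophil markers between 5390 and 36600 CPM and of 10 skeletal muscle markers between 7000 and 107000 CPM. In such bulk RNA, fewer cells of a type and less RNA per cell cannot be told apart.

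On mouse build GRCm38, as given in the count table, Mmp13 (ENSMUSG00000050578, chr9:7272514-7283333), Mmp3 (ENSMUSG00000043613, chr9:7445822-7455972) and Mmp8 (ENSMUSG00000005800, chr9:7558429-7568486) are on the plus strand, in 1 cluster of 10 listed Mmp genes. The start of Mmp3 lies 173 kb from that of Mmp13 and 113 kb from that of Mmp8, yet the levels of these neighbours varied in unlike ways between mice. Their promoters are shown for that reason, as RefSeq sequence of GRCm38.p6, plus strand, from 150 bases before the start to 30 bases after it. Capitals mark matches on either strand to TGANTCA, the motif of the AP-1 family, and to TATAAA, the TATA box, which do not overlap each other here.
Mmp13, chr9:7272364-7272543: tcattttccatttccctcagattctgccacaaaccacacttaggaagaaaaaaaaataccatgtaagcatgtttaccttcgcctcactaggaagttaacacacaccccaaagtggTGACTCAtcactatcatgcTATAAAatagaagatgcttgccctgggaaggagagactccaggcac
Mmp3, chr9:7445672-7445851: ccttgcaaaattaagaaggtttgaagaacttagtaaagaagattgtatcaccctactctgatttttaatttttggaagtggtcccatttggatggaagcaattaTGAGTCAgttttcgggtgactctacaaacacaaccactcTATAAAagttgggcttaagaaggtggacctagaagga
Mmp8, chr9:7558279-7558458: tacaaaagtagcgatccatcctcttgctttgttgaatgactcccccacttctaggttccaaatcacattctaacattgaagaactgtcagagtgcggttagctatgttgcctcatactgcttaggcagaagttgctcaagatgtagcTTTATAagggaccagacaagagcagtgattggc
The AP-1 motif was found at 35 bases before the start of Mmp13 and at 46 bases before that of Mmp3, and not in the window of Mmp8. The TATA motif was found in all 3 windows, at 16 bases before the start of Mmp13 and at 7 bases before that of Mmp3. In Mmp8 it was matched only on the opposite strand, as TTTATA, at 3 bases before the start. Among 32851 mouse promoters of the same window, 4.99% held the AP-1 motif and 8.37% the TATA motif. Promoters of 7 of the 10 genes were matched, and those of Mmp14, Timp1, Timp2 and Timp3 held neither motif. A match describes letters, not a bound site.

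The other members lie apart from each other. Mmp2 (ENSMUSG00000031740) is at chr8:92827328-92853417, Mmp9 (ENSMUSG00000017737) at chr2:164940780-164955850 and Mmp14 (ENSMUSG00000000957) at chr14:54431604-54441258, with no other annotated gene across them. Mmp16 (ENSMUSG00000028226, chr4:17852893-18119145) spans the pseudogene Gm11860, which had 0 to 2 counts per mouse. Timp1 (ENSMUSG00000001131, chrX:20870166-20874735) lies within Syn1 and Timp3 (ENSMUSG00000020044, chr10:86300372-86349506) within Syn3, both on the opposite strand, with medians of 74 and 14 counts. Timp2 (ENSMUSG00000017466, chr11:118301069-118355740) overlaps BC100451 on the same strand, which had a median of 25 counts. The lowest count of Timp1 in any mouse was 689, of Timp2 10816 and of Timp3 9091, so the counts assigned to these neighbours were small beside those of the TIMPs.

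The levels of the 10 genes differed widely when set per length, as median RPKM (CPM divided by the length of the gene's exons in kilobases) over the 41 mice. The gelatinase Mmp9 was highest at 375 RPKM, followed by the collagenase Mmp13 at 206 RPKM. Mmp8, Mmp14, Timp2 and Mmp2 followed closely at 104, 103, 95.6 and 91.5 RPKM, an order within the spread between mice. Timp1 and Timp3 were close to each other, at 39.4 and 37.5 RPKM. The membrane-type proteinase Mmp16 had 2.61 RPKM and the stromelysin Mmp3 0.866 RPKM, with 7 counts of Mmp3 in its lowest mouse.

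Mmp2, the gelatinase of mesenchymal cells, was lower in old bone. Its level in young mice was 291 to 622 CPM (median 467), in old vehicle mice 129 to 441 CPM (median 238) and in old AP mice 103 to 437 CPM (median 217). All 13 old vehicle mice and all 16 old AP mice were below the young median, and 8 and 13 of them were below the lowest young mouse. In old vehicle mice Mmp2 fell by 0.82 on the log2 scale (SE 0.22, n = 13 against 12; adjusted p = 0.00568 in the quasi-likelihood test of edgeR, with the Benjamini-Hochberg adjustment made over all genes tested). In old AP mice it fell by 1.01 against young mice (SE 0.20, adjusted p = 6.24e-04 in the same edgeR test). Both calls of Mmp2 were lost with the summed osteoblast or stromal fibroblast markers as a covariate (changes of -0.13 and -0.22 in old vehicle mice, adjusted p = 0.475 and 0.469, edgeR). Between the old groups the difference was -0.19 with an interval of -0.59 to 0.22 and an adjusted p of 0.573 (edgeR), and -0.10 without vehicle mouse 16.

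Mmp16, a membrane-anchored proteinase that can activate proMmp2, was lower in old bone too. It had 23.2 to 54.1 CPM in young mice (median 35.3), 9.81 to 29.6 CPM in old vehicle mice (median 20.5) and 4.13 to 40.4 CPM in old AP mice (median 15.1). In 9 of 13 old vehicle mice and 13 of 16 old AP mice the level was below the lowest young mouse. Mmp16 fell by 0.86 in old vehicle mice (SE 0.25, adjusted p = 0.0126, edgeR) and by 1.03 in old AP mice (SE 0.24, adjusted p = 0.00222, edgeR) against young mice. Its calls too were lost with either covariate (0.04 and -0.27 in old vehicle mice, adjusted p = 0.849 and 0.496, edgeR). The same limit holds, since both sums varied with Mmp16 as well. AP mice differed from vehicle mice by -0.17 (interval -0.64 to 0.30, adjusted p = 0.658, edgeR), and by -0.10 without AP mouse 24 and -0.31 without AP mouse 27.

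These were the only members to pass the thresholds of an adjusted p under 0.05 and a log2 change beyond 0.5 in edgeR. In old vehicle against young mice, 2 of 10 members were called, both lower, against 9.06% of all genes tested (4.76% lower and 4.3% higher). Old AP against young mice gave 2 of 10 called, both lower, against 8.58% of all genes (4.85% lower and 3.73% higher). Both comparisons share the young mice, so the second is not separate support for the first. In old AP against old vehicle mice 0 of 10 members were called by edgeR, against 0.0726% of all genes. None of the 10 had an unadjusted p under 0.05, which 4620 of the 19292 genes tested had (23.9%). DESeq2 called 0 members in that comparison as well. The median change of the 10 members was 0.06, -0.02 and -0.18 on the log2 scale in these 3 comparisons, beside 0.01, 0.02 and 0 over all genes tested.

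**Figure D1:**
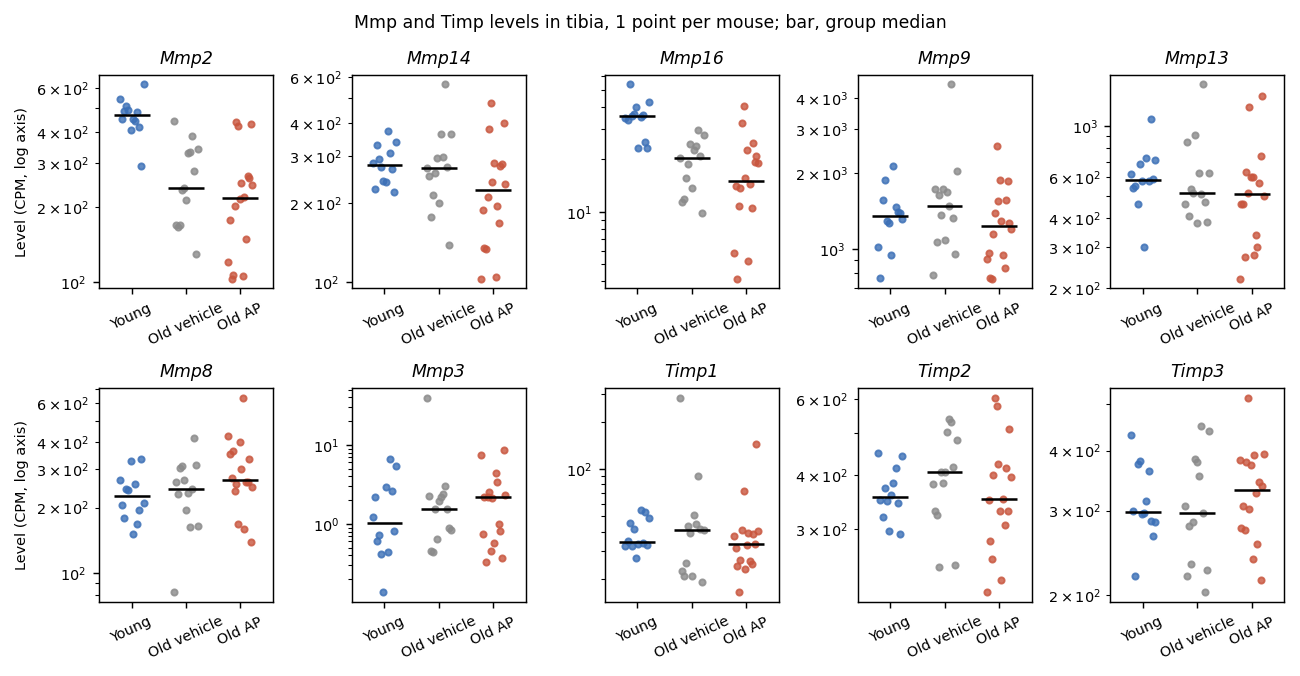
Level of each gene in CPM (vertical log axis) in young, old vehicle and old AP mice, with 1 point per mouse and a bar at the group median. Mmp2 and Mmp16 sit lower in both old groups, though some old mice reach the young range. The other 8 genes were not called, and Mmp3 and Timp1 have 1 far higher old vehicle mouse.

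**Figure D2:**
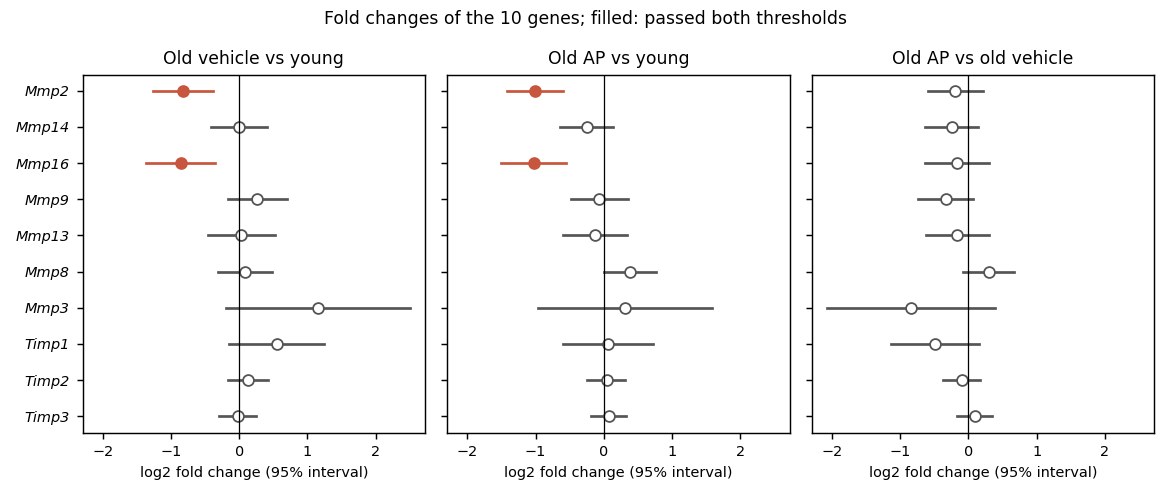
Log2 fold change of each gene (horizontal axis) with its 95% interval in the 3 comparisons, filled where both thresholds were passed. Mmp2 and Mmp16 lie at -0.82 and -0.86 in old vehicle against young mice, and no gene is filled in old AP against old vehicle mice.

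Mmp14, the membrane-type proteinase that activates proMmp2 and also cuts collagen, was not called. It had 220 to 375 CPM in young mice (median 278), 138 to 563 CPM in old vehicle mice (median 270) and 103 to 478 CPM in old AP mice (median 223). The old groups reached both below and above the young range. The change was -0.01 in old vehicle mice (interval -0.42 to 0.41) and -0.25 in old AP mice (interval -0.64 to 0.14), each against young mice.

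Mmp9, the gelatinase of osteoclasts, had 767 to 2150 CPM in young mice (median 1360), 783 to 4540 CPM in old vehicle mice (median 1480) and 759 to 2570 CPM in old AP mice (median 1230). The highest vehicle value came from mouse 7, and the next highest was 2040 CPM, within the young range. The change was 0.26 in old vehicle against young mice (adjusted p = 0.422, edgeR) and 0.04 without mouse 7. Between the old groups it was -0.33 (interval -0.74 to 0.07), and -0.10 without mouse 7.

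The collagenases showed no called difference. Mmp13 had medians of 585, 514 and 508 CPM in young, old vehicle and old AP mice, with ranges of 299 to 1070, 380 to 1510 and 219 to 1350 CPM. Its highest vehicle mouse was again mouse 7. Mmp8, the neutrophil collagenase, had 151 to 334 CPM in young mice (median 225), 82.1 to 416 CPM in old vehicle mice (median 244) and 139 to 637 CPM in old AP mice (median 267). The medians differed by less than the spread within any group. In old AP against young mice Mmp8 differed by 0.38 (SE 0.19, adjusted p = 0.156, edgeR), beside summed neutrophil markers with medians of 11800, 16500 and 17100 CPM in the 3 groups.

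Mmp3, which cuts proteoglycans and activates other proMMPs, was near the lower limit of the data and was set by single mice. It had 0.137 to 6.7 CPM in young mice (median 1.02), 0.437 to 39.8 CPM in old vehicle mice (median 1.56) and 0.327 to 8.59 CPM in old AP mice (median 2.18). Mouse 16 alone gave the vehicle value of 39.8 CPM, and the next vehicle mouse had 3.03 CPM. The change in old vehicle against young mice was 1.15 (interval -0.20 to 2.50, adjusted p = 0.234, edgeR), but -0.40 without mouse 16. In old AP against old vehicle mice it was -0.84, but 0.72 without that mouse.

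Timp1, the inducible inhibitor, was high in the same mouse. It had 27 to 54.6 CPM in young mice (median 34.3), 19.1 to 285 CPM in old vehicle mice (median 41.2) and 16.5 to 145 CPM in old AP mice (median 33.1). The value of 285 CPM was that of mouse 16, above 90.5 CPM in the next vehicle mouse, and the value of 145 CPM was that of mouse 10. Timp1 differed by 0.55 in old vehicle against young mice (adjusted p = 0.277, edgeR), and by -0.03 without mouse 16. Mouse 16 also had the lowest Mmp8 of the vehicle mice and the lowest neutrophil marker sum, 5390 CPM. It was kept in the main tests and left out only where this is stated.

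Neither Timp2 nor Timp3 was called. Timp2, which takes part in the activation of proMmp2, had medians of 355, 406 and 352 CPM in young, old vehicle and old AP mice. Timp3, the inhibitor that binds to the matrix, had medians of 298, 297 and 332 CPM. The groups overlapped for both genes, and the intervals of the changes were narrow. For old vehicle against young mice they ran from -0.16 to 0.42 for Timp2 and from -0.29 to 0.24 for Timp3, and for old AP against old vehicle mice from -0.37 to 0.17 and from -0.16 to 0.34.

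Within single mice, the ratio of Mmp2 to its partner Timp2 was lower in old bone. The log2 ratio of Mmp2 to Timp2 was 0 to 0.61 in young mice (median 0.34), -0.96 to 0.21 in old vehicle mice (median -0.69) and -1.45 to -0.25 in old AP mice (median -0.76). All 16 old AP mice and 12 of 13 old vehicle mice were below the lowest young mouse, and the exception was mouse 16. In linear terms the median was 1.27 Mmp2 reads per Timp2 read in young mice, 0.62 in old vehicle mice and 0.591 in old AP mice. This ratio was described without a test, since it was set up with the fall of Mmp2 known.
For Mmp14 to Timp2 the medians were -0.38, -0.50 and -0.84, and 4 of 13 vehicle mice and 10 of 16 AP mice were below the lowest young mouse. The ratios of Mmp9 and Mmp13 to Timp1 overlapped across the groups. Their medians were 5.03, 5.63 and 5.12 for Mmp9 and 3.99, 4.06 and 3.87 for Mmp13 in young, old vehicle and old AP mice. Both were lowest in mouse 16, at 1.46 and 0.70.

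**Figure D3:**
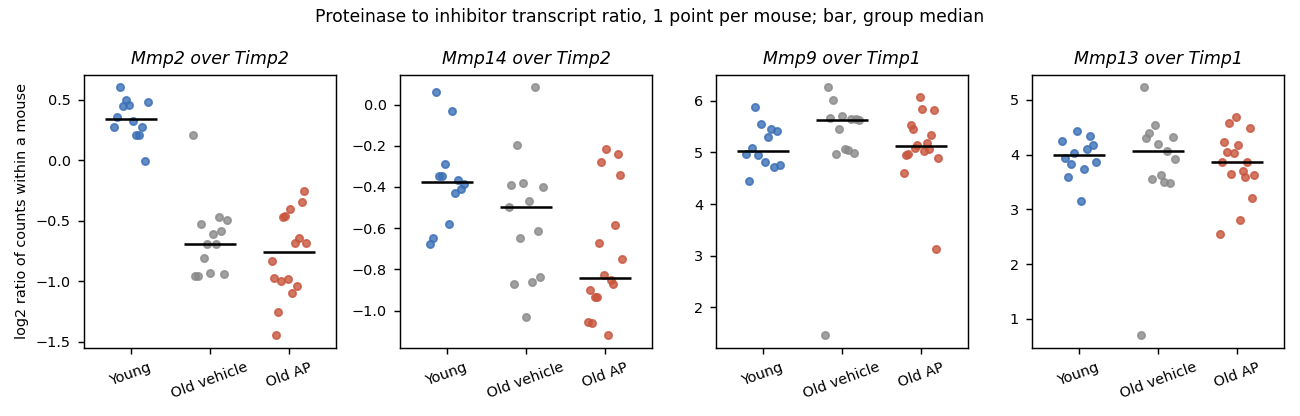
Log2 ratio of counts between a proteinase and an inhibitor within each mouse (vertical axis), for 4 pairs and 3 groups, with a bar at the median. The ratio of Mmp2 to Timp2 separates the young mice, between 0 and 0.61 after rounding, from all old AP mice and all but 1 old vehicle mouse.

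The old mice also differed more from each other. The SD of log2 CPM among old vehicle mice was larger than among young mice for 10 of 10 members, where this held for 71.6% of all genes tested. Among old AP mice it was larger for 9 of 10 members, beside 70.8% of all genes. The exception was Mmp3, with an SD of 1.58 in young and 1.44 in old AP mice. The median ratio of the SDs was 1.58 in vehicle mice and 1.92 in AP mice for the members, and 1.21 in both groups for all genes. Mmp14 had an SD of 0.25 in young, 0.51 in old vehicle and 0.67 in old AP mice, and Mmp16 had 0.36, 0.51 and 0.92. The lowest Mmp14 of the AP mice, 103 to 135 CPM, was in mice 18, 19, 24 and 28. These mice also had the lowest osteoblast marker sums of that group, 662 to 1080 CPM. The numbers are descriptions, and the members are not independent of each other. Part of the spread followed the mouse numbers, as seen in Mmp14, singled out after its values were known. Mmp14 was 138 to 214 CPM in vehicle mice 20 to 23 and 252 to 563 CPM in the other vehicle mice. The labels name no batch, and the source of this was not tested.

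Differences between mice of 1 group were set beside cell type markers, which were summed for 12 lists and compared with each member after each group's mean had been removed. The correlations are descriptions over 41 mice, whose libraries, depth and composition the genes share. Mmp8 followed the neutrophil markers (Pearson r = 0.93, and 0.93, 0.93 and 0.94 within young, old vehicle and old AP mice). Mmp9 followed the osteoclast markers (r = 0.90), with r = 0.19 for the neutrophil markers, though neutrophils also store Mmp9. Its r was 0.69 with the osteoblast, 0.66 with the chondrocyte, 0.57 with the stromal fibroblast and 0.55 with the macrophage markers. Within old AP mice it was 0.86 with the osteoclast and 0.84 with the osteoblast markers. Mmp13 was nearest to the osteoclast markers (r = 0.81, and 0.48, 0.91 and 0.85 within young, old vehicle and old AP mice) and then to the osteoblast markers (r = 0.65, but 0.08 within young mice).
Mmp16, Mmp14 and Mmp2 had their highest r with the osteoblast markers, at 0.93, 0.91 and 0.90, but followed other lists too. Their r with the osteoclast markers was 0.70, 0.84 and 0.62. It was 0.76, 0.73 and 0.78 with the chondrocyte sum, which is nearly all Col11a2 (a median of 2330 CPM in young mice, where the sum had 2410). Within the young mice alone the r with osteoblast markers was 0.84, 0.71 and 0.47, where Mmp14 and Mmp2 were nearer to the osteocyte markers (0.83 and 0.59), and in old AP mice it was 0.95, 0.93 and 0.94. Leaving out the 2 mice farthest from the median marker sum gave 0.92, 0.92 and 0.88. Timp2 had r = 0.77 with the osteocyte, 0.75 with the osteoblast and 0.74 with the stromal fibroblast markers, Timp3 had 0.61 with the stromal fibroblast markers, and Timp1 had 0.57 with the osteoblast markers. Within young mice these were lower, at 0.49, 0.14 and 0.41 for Timp2, 0.21 for Timp3 and 0.18 for Timp1, which had 0.57 with the osteoclast markers there. For Mmp3 no list exceeded a size of 0.36 over the 41 mice. With the neutrophil markers its r was -0.75 in young, -0.64 in old vehicle and 0.14 in old AP mice. It was -0.75, -0.19 and -0.11 with the B cell and 0.75, -0.56 and -0.22 with the adipocyte markers.

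**Figure D4:**
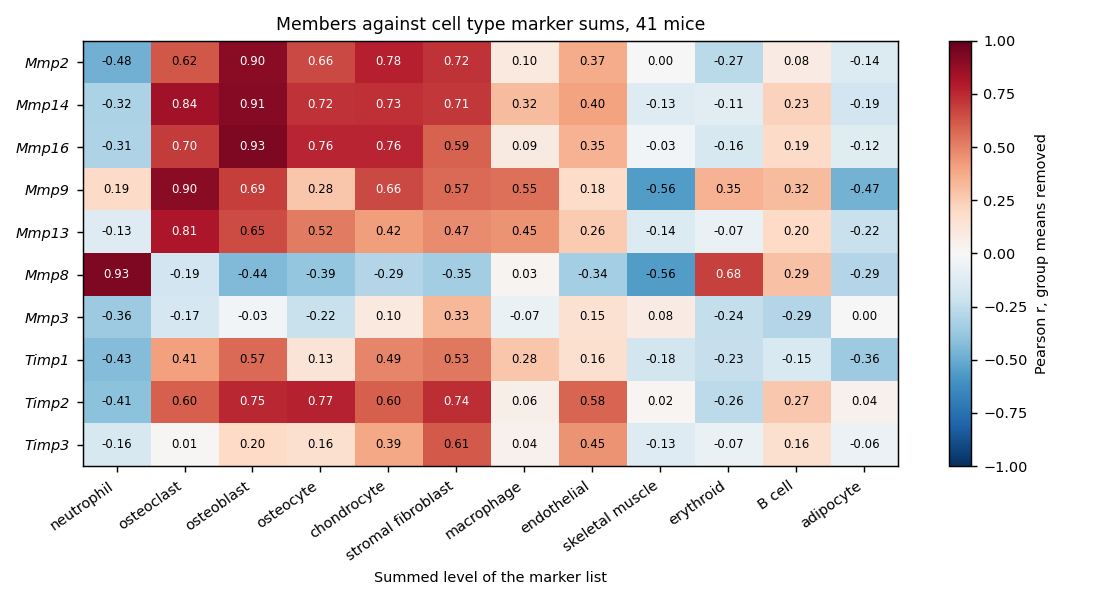
Pearson r, as colour and number, between each gene (vertical axis) and the summed level of 12 cell type marker lists (horizontal axis) over 41 mice after group means were removed. The highest r of Mmp8 is with neutrophil, of Mmp9 and Mmp13 with osteoclast, and of Mmp2, Mmp14 and Mmp16 with osteoblast markers.

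Single genes gave a similar picture for Mmp8, Mmp9 and Mmp13. Those most like Mmp8 were 9830107B12Rik, Tmem154 and Cxcr2, a chemokine receptor of neutrophils, with r of 0.97, 0.97 and 0.96, and 5 neutrophil markers were among its 50 nearest genes. Nearest to Mmp9 were Npc2, Nfatc1 and Adcy3, each at 0.92, of which Nfatc1 is the master transcription factor of osteoclasts. Nearest to Mmp13 were Itgav, Tnfrsf11a, the gene of the osteoclast receptor RANK, and Fblim1, at 0.86, 0.86 and 0.84.
Nearest to Mmp2 were Leprel4, Antxr1 and B3gnt9 (0.95, 0.95 and 0.94), to Mmp14 Cd276, Myo1e and Slc39a13 (0.95, 0.94 and 0.94), and to Mmp16 Cdh2, Slc36a2 and Nrp2 (each 0.96). The 50 genes nearest to Mmp2 held no osteoblast marker. Among the inhibitors, Timp2 was nearest to Parva, Antxr1 and Pkd2 (0.93, 0.92 and 0.92), with 0 genes of any list among its 50 nearest. Timp1 was nearest to Lrrc42, Akr1b8 and Col6a1, at 0.87, 0.86 and 0.85. Timp3 was nearest to Ctgf, Aldh1a3 and Cys1, at 0.80, 0.79 and 0.78. Mmp3 was nearest to Dpt, Medag and Gm20488, at 0.88, 0.88 and 0.87, so that the low-level Mmp3 still had near neighbours outside the marker lists.
Among the members themselves, Mmp2, Mmp14, Mmp16 and Timp2 varied together. The r between Mmp2 and Mmp14 was 0.90, between Mmp14 and Mmp16 0.89, between Mmp2 and Timp2 0.88, and between Mmp2 and Mmp16 0.87. Mmp2 and Mmp8 varied in opposite directions (r = -0.60).

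Markers of several cell types were lower in old bone beside Mmp2 and Mmp16. The osteoblast sum was 3140 to 6350 CPM in young mice (median 4410), 1050 to 4000 CPM in old vehicle mice (median 2180) and 662 to 5180 CPM in old AP mice (median 1930). In edgeR 3 of 8 osteoblast markers fell in old vehicle mice and 5 of 8 in old AP mice, each against young mice, and none rose. Over all genes tested, 4.76% fell and 4.3% rose in old vehicle mice, and 4.85% fell and 3.73% rose in old AP mice. The stromal fibroblast markers had medians of 3850, 2860 and 2560 CPM, with 4 of 8 lower in each comparison. Of 8 chondrocyte markers, Col11a2 and Col9a1 were lower in each comparison and none was higher. The median change of the 8 was -0.82 in old vehicle and 0.57 in old AP mice. Col10a1, Hapln1 and Lect1 reached 122, 39.1 and 32.4 CPM in AP mouse 18, while their AP medians of 2.2, 1.28 and 0.549 CPM were below the young medians of 2.34, 3.41 and 0.765 CPM. Lower B cell markers numbered 6 of 8 in old vehicle and 1 of 8 in old AP mice, and lower erythroid markers 3 and 2 of 8. Of 8 osteocyte markers 2 were higher and 1 lower in old vehicle mice, and 2 higher and 2 lower in old AP mice. The osteoclast markers, with which Mmp9 varied, had medians of 2460, 2460 and 2100 CPM and 0 of 8 called by edgeR. Other lists went up against young mice. Of 11 neutrophil markers 3 were higher and 0 lower in old AP mice, and 0 were called in old vehicle mice. Of 10 skeletal muscle markers 1 was higher in old vehicle mice and 0 were called in old AP mice.
With the osteoblast marker sum as a covariate, an alternative that was added once the data were known, the changes of Mmp2 and Mmp16 in old vehicle against young mice were -0.13 and 0.04, each with an SE of 0.12. They were -0.16 and -0.01 in old AP against young mice. In the same fit 4 other members were higher in old vehicle mice, namely Mmp9 (0.80), Mmp14 (0.65), Timp1 (1.12) and Timp2 (0.52), where 8.39% of all genes were called. In old AP mice Mmp9 (0.64), Mmp14 (0.57) and Timp2 (0.53) were higher, with 4.41% of all genes called. A covariate that is lower in old mice moves the change of any gene that rises with it upward. Without mouse 16 Timp1 was no longer called in old vehicle mice (0.53, adjusted p = 0.124, edgeR), though it was in old AP mice (0.80), and Mmp13 was called in old vehicle mice (0.62). Without mouse 7 the change of Mmp9 in old vehicle mice was 0.57 and was still called (adjusted p = 0.0126, edgeR).
With the stromal fibroblast sum neither Mmp2 nor Mmp16 was called, and the same 4 members were higher in old vehicle mice (7.25% of all genes called) and Timp2 alone in old AP mice (5.14% of all genes called). In that fit Timp1 was not called in old vehicle mice without mouse 16 (0.57, adjusted p = 0.108, edgeR), and neither Mmp9 (0.45) nor Mmp14 (0.49) without mouse 7. Timp2 was joined in old AP mice by Timp1 without mouse 16 (0.79, adjusted p = 0.0277, edgeR) and by Timp3 without mouse 7 (0.52, adjusted p = 0.00852, edgeR). With mouse 16 or mouse 7 left out, Mmp2 and Mmp16 were not called in either fit, and Timp2 was in both. The source of the lower Mmp2 and Mmp16 among these cell types was not tested.

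**Figure D5:**
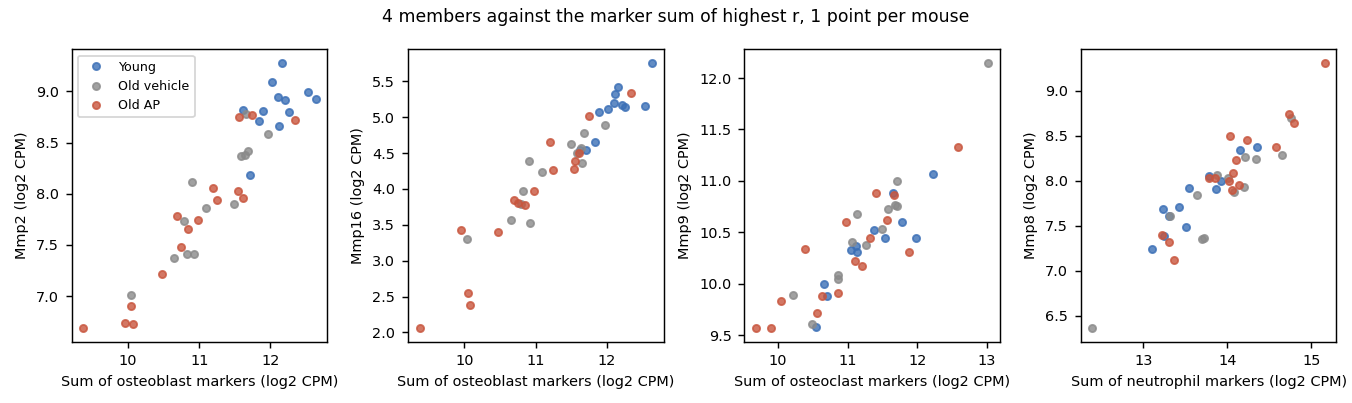
Level of 4 genes (vertical axis, log2 CPM) against the summed level of a marker list (horizontal axis, log2 CPM), with 1 point per mouse coloured by group. Mmp2 and Mmp16 rise along the osteoblast markers from old to young mice, Mmp9 along the osteoclast markers and Mmp8 along the neutrophil markers with the groups mixed.

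Of the 16 other Mmp genes, 9 were read often enough to be tested. In old vehicle against young mice 2 rose, Mmp15 by 0.78 (adjusted p = 0.00174, edgeR) and Mmp17 by 0.59 (adjusted p = 0.0234, edgeR), both membrane-type proteinases, and none fell. Of all genes tested 4.3% rose and 4.76% fell there. Mmp17 is named after its values were seen. Mmp15 was above the highest young mouse in 10 of 13 vehicle mice. Against young mice, old AP mice had higher Mmp27 (0.94) and Mmp25 (0.63), and Mmp23 fell by 0.81. Of all genes tested 3.73% rose and 4.85% fell there. Among AP mice Mmp25 was highest in mouse 19 and lowest in mouse 27. These mice had the highest and lowest neutrophil sums of that group (36600 and 9560 CPM). The median change of the 9 genes was 0.20 and 0.42 in these comparisons. The remaining inhibitor, Timp4, was not called, at 0.31 and 0.28. In the chromosome 9 cluster, 5 of the 10 listed Mmp genes were tested, and Mmp1b, Mmp1a, Mmp10, Mmp20 and Mmp7 had 0 to 65 counts over all 41 mice together.

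Of 7 tested regulators outside the TIMP family, 3 fell in both old groups and none rose, with a median change of -0.22 and -0.23. Over all genes tested 4.76% fell in old vehicle and 4.85% in old AP mice. A2m, which encodes alpha-2-macroglobulin, a plasma inhibitor that traps proteinases, had median levels of 54.8 CPM in young, 5.21 CPM in old vehicle and 3.03 CPM in old AP mice. All 13 vehicle mice and 15 of 16 AP mice were below the lowest young mouse. The log2 changes of A2m were -3.29 in vehicle mice and -3.65 in AP mice (adjusted p = 5.46e-05 and 4.47e-06, edgeR). Thbs1 and Thbs2 encode thrombospondins, which bind MMPs and their receptor Lrp1. The changes were -1.74 and -1.50 for Thbs1, with all old mice below the lowest young mouse, and -1.24 and -1.48 for Thbs2.

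Of the 4 tested genes of proMMP activation, Plat, the tissue plasminogen activator, fell by 0.69 in old AP against young mice (adjusted p = 0.00544, edgeR), and 0 were called in old vehicle against young mice. In the related ADAM and ADAMTS proteinases, 8 of 27 tested genes were called in old vehicle mice, 2 higher and 6 lower, and 8 in old AP mice, all lower. Over all genes tested 9.06% and 8.58% were called, with 4.76% and 4.85% lower. The changes in old vehicle and old AP mice were -1.37 and -1.14 for Adamts18, -0.74 and -0.64 for Adamts3, which processes procollagen, and -0.71 and -0.78 for Adam12. Adamts20 rose by 1.10 in old vehicle mice.
Among 15 matrix genes whose proteins MMPs cut, 4 fell and 1 rose in old vehicle mice, and 7 fell and 1 rose in old AP mice. Of all genes tested 4.76% and 4.85% fell, and 4.3% and 3.73% rose. The fibrillar collagen genes Col3a1, Col2a1 and Col5a2 fell, with changes of -1.92, -1.12 and -1.14 in old vehicle mice and -2.08, -1.45 and -1.25 in old AP mice. The changes of Dcn, which encodes the proteoglycan decorin, were -1.07 and -1.15. The gene that rose was Vcan, which encodes the proteoglycan versican, at 0.59 and 0.77, and it is named after its values were seen. In old AP against old vehicle mice 0 genes of these lists were called by edgeR. Singled out after their values had been seen, Bsg (-0.27), Adam10 (0.30) and Mmp27 (0.74) had the lowest adjusted p there, at 0.0598, 0.0613 and 0.0643 (edgeR).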

How the data were processed

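RNA from 41 mouse tibiae was sequenced, and the authors deposited raw read counts per gene, with 1 column per mouse. The submitters' processing notes name TopHat2 2.0.6, HTSeq and the GRCm38 build; the strand setting and the annotation release are not given in the sources used here, so reads of overlapping genes may be shared. Mice were grouped by their labels. From the counts, edgeR 4.0.16 in R 4.3.3 was used to scale libraries by TMM, to keep the 19292 genes that passed filterByExpr and to fit all 3 groups together for quasi-likelihood tests, with Benjamini-Hochberg adjustment over all genes tested. Calls needed an adjusted p under 0.05 with a log2 fold change beyond 0.5. Intervals are 95% intervals. Levels are CPM, or RPKM by the table's gene lengths, correlations used log2 CPM with a prior count of 2, and ratios used the counts. DESeq2 1.42.0 was an alternative, and others were its size factors, upper quartile normalization, no filter, models of the compared groups, no fold threshold, a robust fit, marker sums as covariates and each mouse left out. The nearest 3 genes by correlation, and up to 4 called genes of each list by size of change, were named, and others are marked as named after their values were seen. The members and lists were chosen with earlier results of these data known. The edgeR script was tested on simulated counts.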

Additional observations from a re-analysis of the deposited data

How the results depend on the processing

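The calls of Mmp2 and Mmp16 against young mice, and the absence of calls between the old groups, were the same with DESeq2, its size factors, upper quartile scaling, no filter, models of the compared groups, no fold threshold, a robust fit and the muscle and neutrophil covariates. They held without any single mouse too, when 2, 0 and 2 members were called in old vehicle against young, old AP against old vehicle and old AP against young mice. Without single mice Mmp2 ranged from -0.91 to -0.76 in old vehicle and from -1.10 to -0.96 in old AP against young mice, and Mmp16 from -0.92 to -0.79 and from -1.17 to -0.96. No paired analysis was possible because the labels give every mouse a number of its own.

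The covariates chosen after the data had been seen ended both calls. Of the members, 4 were called in old vehicle against young mice with the osteoblast or the stromal fibroblast sum, and 1 in old AP against young mice with the latter. With the osteoblast sum, signs turned in old vehicle against young mice for Mmp8 (-0.29), Mmp14 (0.65), Mmp16 (0.04) and Timp3 (0.09), in old AP against old vehicle mice for Timp2 (0.01), and in old AP against young mice for Mmp8 (-0.11), Mmp9 (0.64), Mmp13 (0.53) and Mmp14 (0.57). With the stromal fibroblast sum they turned for Mmp8 (-0.21), Mmp14 (0.54) and Timp3 (0.29), and in old AP against young mice for Mmp9 (0.53), Mmp13 (0.40) and Mmp14 (0.42). Mmp2 and Mmp16 then stood at -0.22 and -0.27 in old vehicle and -0.31 and -0.35 in old AP mice. The cause was not tested.

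Other turned signs were of members that were not called. The neutrophil sum gave -0.23 for Mmp8 (adjusted p = 0.0222 in edgeR, below the fold threshold) and 0.10 for Mmp14 in old vehicle against young mice, 0.50 for Mmp3 between the old groups and -0.10 for Mmp8 in old AP against young mice. The muscle sum gave 0.03 for Mmp14, and DESeq2 gave -0.39 and 0.71 for Mmp3. Without single mice, old vehicle against young mice ranged from -0.40 to 1.49 for Mmp3, -0.15 to 0.13 for Mmp13, -0.13 to 0.05 for Mmp14, -0.03 to 0.63 for Timp1 and -0.08 to 0.02 for Timp3. Between the old groups the range was -1.10 to 0.72 for Mmp3, -0.30 to 0.02 for Mmp13 and -0.76 to 0.09 for Timp1. In old AP against young mice it was -0.17 to 0.01 for Mmp9, -0.21 to 0.12 for Timp1 and -0.03 to 0.07 for Timp2.

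Over all genes, edgeR called 14 between the old groups, DESeq2 217, edgeR without a fold threshold 33, with the neutrophil sum 100 and without single mice 0 (vehicle mouse 6) to 405 (AP mouse 9), so the background share there is unstable. Without a fold threshold 3736 and 3437 genes were called against young mice in old vehicle and old AP mice, and 2888 in old vehicle mice with the neutrophil sum. Depth limits Mmp3, whose lowest library held 7 counts.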
